A study of Homo sapiens with 8 samples.

Results

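Gene expression in CHD7 knockout (KO) cells was set directly against that in cells with a single HERVH element deleted (HERVH KO), without wild-type (WT) cells in the fit. Both are CRISPR-edited derivatives of H9, an established human embryonic stem cell (hESC) line. The comparison holds the 4 RNA-seq libraries labelled CHD7 KO and HERVH KO, 2 of each, out of 8 in the series, and all 57773 Ensembl gene rows of their count files. The 5 summary rows that HTSeq adds to each file were left out. A comparison between these lines has in common whatever editing, selection and cloning did alike to both. The question was which effects of CHD7 loss remain against HERVH KO and which depend on the WT libraries. The 2 WT libraries were therefore used in 2 further comparisons of the same construction, CHD7 KO against WT and HERVH KO against WT.

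The CHD7 KO libraries carry the genotype CHD7 -/-, and the HERVH KO libraries a deletion of an HERVH element on chromosome 2. The WT cells are themselves an engineered line in which CHD7 carries an HA tag, which the study introduced by CRISPR-Cas9. A comparison with WT therefore does not set edited cells against unedited ones. The HERVH knockdown libraries, not used here, come from that tagged line treated with LNA-GapmeRs. All cells of the 3 groups compared were untreated and grown in mTesR1 medium, and the RNA was depleted of rRNA. The study's methods describe clones picked as colonies after Cas9 delivery and puromycin selection, and independent clones of each KO, but the labels do not say whether replicates are clones or cultures. All p-values therefore measure the spread between these samples, which may be technical.

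CHD7 is an ATP-dependent chromatin remodeler of the chromodomain family that binds enhancers, and its loss of function in people causes CHARGE syndrome, in which tissues formed from the neural crest and the inner ear are affected. HERVH is a family of human endogenous retroviruses whose copies are transcribed at a high level in hESCs as non-coding RNAs, and some copies supply promoters or ends of transcripts with names of their own. In the study, HERVH RNA and CHD7 are examined as binding partners. The HERVH KO cells had 1 copy of the family deleted and CHD7 was not knocked out in them. However, the study reports raised CHD7 and p300 protein in these cells, and effects of the deletion on other HERVH copies. Gene-level counts do not measure these.

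The deletion was made with a pair of guides, which are shown because they place the missing copy relative to the genes described here. Each spacer is given 5′ to 3′ in lower case with its PAM in capitals, as read from GRCh37, and each had 1 site on chromosome 2.
5′ guide: ttagaagtataccgaactcaGGG
3′ guide: cagcatccaacgatcacagcAGG
The 5′ guide lies at chr2:210163938-210163957 and the 3′ guide at chr2:210169902-210169921, both on the plus strand, with 5964 bases between their cuts. No gene of the count files overlaps this interval. The nearest genes counted are the pseudogenes MEAF6P1 and PKP4P1, 117.2 and 118.1 kb away, MAP2 at 118.9 kb and the pseudogene HSPA8P6 at 225.1 kb.

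Reads counted on genes ranged from 18093439 to 23156445 in the 6 libraries used, and 34.9% to 42.5% of the reads assessed fell outside annotated genes, highest in CHD7 KO replicate 2. The median SD of log2 CPM (counts relative to the library size after TMM scaling) between replicates was 0.108 in CHD7 KO, 0.0759 in HERVH KO and 0.118 in WT over 10922 genes. The hESC markers POU5F1, SOX2, NANOG, LIN28A, DNMT3B and L1TD1 were expressed in all of these libraries, and none passed the test between CHD7 KO and HERVH KO. POU5F1, a core pluripotency factor, differed by 0.12 (SE 0.088) and NANOG, another, by 0.03 (SE 0.107) on the log2 scale.

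Many more genes were called in CHD7 KO, against either reference, than in HERVH KO against WT. Calls of the direct comparison can come from a change in either line. A DEG had an FDR (Benjamini-Hochberg, edgeR quasi-likelihood test) below 0.01 together with a difference of 2-fold or more. Between CHD7 KO and HERVH KO, 423 genes were higher and 161 lower in CHD7 KO, 584 of 22034 genes tested or 2.65% (1.92% up and 0.731% down). Of these, 321 and 119 are protein-coding, and the median log2 fold change among all called was 1.74 for rises and -1.49 for falls. Over all genes tested the median was -0.00672 and the middle of the distribution, between the quartiles, ran from -0.221 to 0.263. Against WT, 222 genes were up- and 127 down-regulated in CHD7 KO, 1.57% of 22205 genes tested (1.0% up and 0.572% down). In HERVH KO against WT, 6 genes were down-regulated and 0 up-regulated, 0.0272% of 22073 genes tested. At an unadjusted p below 0.05 that last comparison gave 1704 genes, and other tests gave 0 up and 18 down (DESeq2) or 3 up and 30 down (edgeR's exact test). Leaving out CHD7 KO replicate 2 raised the down-regulated genes of the direct comparison from 161 to 268, and the other 3 libraries left out in turn gave 136 to 173. HERVH KO against WT gave 25 up and 30 down without WT replicate 1, 23 and 100 without WT replicate 2, 1 and 12 without HERVH KO replicate 1, and 0 and 0 without HERVH KO replicate 2. The 3 comparisons share libraries and are not independent of each other.

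**Figure D1:**
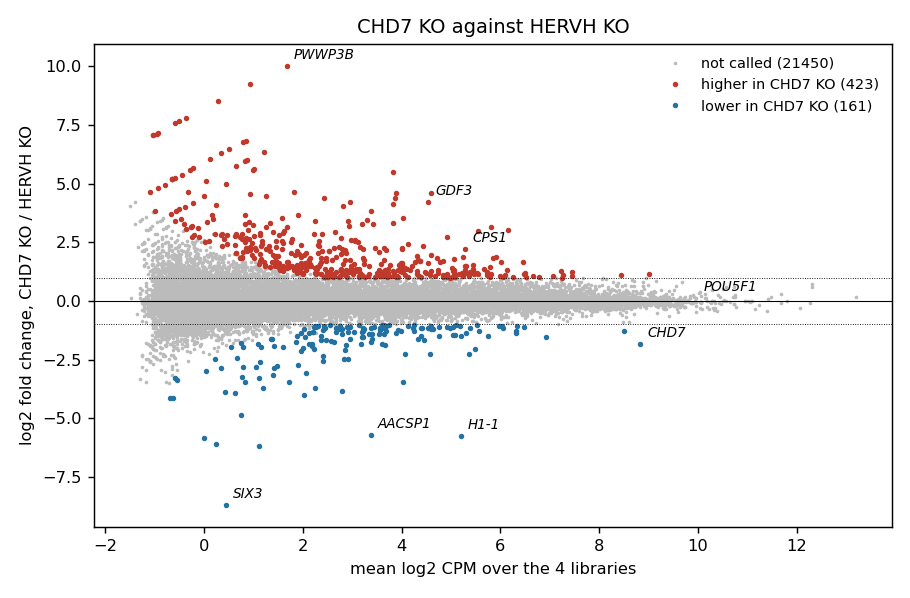
Each point is 1 of the genes tested between CHD7 KO and HERVH KO, with the mean log2 CPM over the 4 libraries on the x axis and the log2 fold change on the y axis. The 423 genes called higher and the 161 called lower in CHD7 KO lie outside the dotted lines at 2-fold, and POU5F1 lies near 0 among the most abundant RNAs.

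The targeted gene was checked first. CHD7, on chromosome 8 of GRCh37 from 61591299 to 61780587, had 4269 and 3667 counts in the CHD7 KO libraries, 16623 and 12799 in the HERVH KO libraries and 14098 and 13888 in WT. Both CHD7 KO libraries were far below the other 4, which lay close together. The level was 199 ± 1.89 CPM (SD, n = 2) in CHD7 KO and 707 ± 14.1 CPM (SD, n = 2) in HERVH KO, a log2 fold change of -1.83 (SE 0.0925, FDR = 1.92e-14). Against WT the value was -1.72 (FDR = 2.39e-09), and CHD7 did not pass the test between HERVH KO and WT (0.12, SE 0.0812). Reads on CHD7 fell against either reference by similar amounts and were not absent. The labels do not name the mutation. The study describes knockouts by InDel mutations or by a stop codon in an early exon, and states that its later experiments used the stop codon. Neither requires reads to be absent.

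The 12 largest falls in CHD7 KO, among called genes with a symbol and no overlap of CPM between the groups, included H1-1, SIX3, LHX2 and ZEB2. H1-1, a replication-dependent linker histone gene of the chromosome 6 histone cluster (26017260 to 26018015), had 31 and 22 counts in CHD7 KO, 1593 and 1383 in HERVH KO and 1754 and 1805 in WT. H1-1 fell by 5.76 on the log2 scale (SE 0.187, FDR = 1.44e-18) against HERVH KO and fell by 5.97 against WT. The pseudogene AACSP1 had 2 and 13 counts against 416 and 412, with 360 and 446 in WT. Reads of AACSP1 can be shared with its parent gene, so that its level is less certain than that of H1-1.

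SIX3, a homeobox gene of the forebrain and eye, had 0 counts in both CHD7 KO libraries, 57 and 47 in HERVH KO and 18 and 17 in WT. It was at least 33.3-fold lower in CHD7 KO than in HERVH KO, taking 3 counts over the group as the floor, and at least 10.8-fold lower than in WT. LINC01833, on the opposite strand beside SIX3, had 0 and 1 counts in CHD7 KO, 44 and 44 in HERVH KO and 17 and 20 in WT. For both genes WT lay between the KO lines, with no overlap among the 3 groups. LHX2, a LIM homeobox gene of the forebrain, had the same order, with 4 and 0 counts in CHD7 KO, 64 and 61 in HERVH KO and 15 and 26 in WT. ZEB2, a zinc finger repressor active in the neural crest and in epithelial-mesenchymal transition, had 8 and 10 counts against 147 and 158, with 65 and 86 in WT. LGI1, a secreted protein of neurons, had 1 and 0 counts in CHD7 KO and 41 and 32 in HERVH KO, but only 6 and 3 in WT, and it did not pass the filter on low counts against WT.

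For these 5 genes HERVH KO lay above WT by 1.62 (SIX3), 1.31 (LINC01833), 1.66 (LHX2), 1.08 (ZEB2) and 3.03 (LGI1) on the log2 scale, and none of these differences passed the test (lowest FDR = 0.163, for LGI1). Against WT, ZEB2 (-2.95, FDR = 0.000273), SIX3 and LINC01833 were still DEGs of CHD7 KO, and LHX2 was not (-3.21, FDR = 0.0357). WT lay nearer to HERVH KO than to CHD7 KO on the log2 scale in 4 of the 5 genes, LGI1 being the exception, and in the other named falls. FOXB2, a forkhead factor, had 0 and 2 counts in CHD7 KO, 86 and 81 in HERVH KO and 74 and 105 in WT. ZNF619, a zinc finger gene, had 15 and 11 counts against 195 and 160, with 228 and 179 in WT. The non-coding LINC02751 fell by 3.83 on the log2 scale against HERVH KO, and CDH9, a type II cadherin, fell by 3.46. LINC02211 completed the 12 largest falls with a change of -3.72, and its WT libraries differed among themselves, at 34 and 67 counts.

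**Figure D2:**
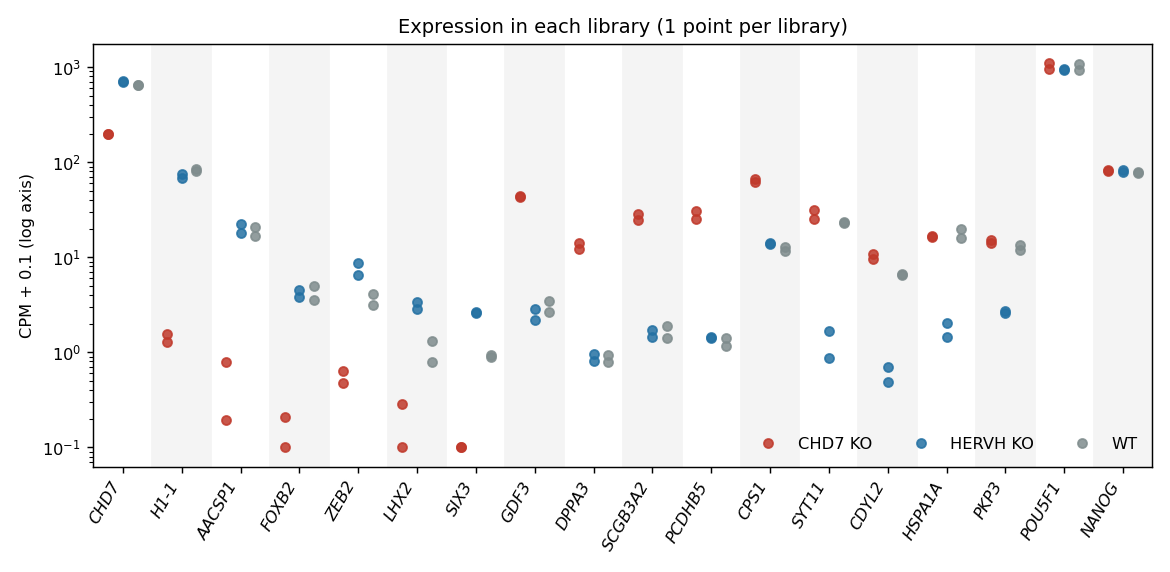
CPM plus 0.1 on a log axis for 18 genes, with 1 point for each of the 2 libraries of CHD7 KO, HERVH KO and WT. CHD7 KO stands apart from both references for CHD7, H1-1 and GDF3, HERVH KO stands apart for SYT11, CDYL2, HSPA1A and PKP3, WT lies between the KO lines for SIX3, and the points of POU5F1 and of NANOG lie close together.

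Many of the largest rises were in genes that the HERVH KO libraries scarcely contained. Of the 423 up-regulated genes, 10 had no count in either HERVH KO library and 31 had 1 to 3 counts in the 2 together, so that their fold changes are lower bounds or wide ratios. PWWP3B, a PWWP domain gene on the X chromosome, had 92 and 155 counts in CHD7 KO, 0 in both HERVH KO libraries and 13 and 20 in WT. It was at least 85.6-fold higher in CHD7 KO than in HERVH KO, and the log2 fold change against WT was 3.02 (SE 0.405, FDR = 4.84e-05). CHD7 KO was highest in this gene and HERVH KO lowest, with WT between them. VAV1, a guanine nucleotide exchange factor of blood cells, had 101 and 47 counts against 0 and 0, with 1 and 0 in WT, and was at least 51.3-fold higher than in HERVH KO. CHP2, a calcineurin B homologue, had 47 and 43 counts and 0 in the other 4 libraries, and was at least 31.2-fold higher than in HERVH KO.

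TCEAL5, an X-linked gene of the TCEAL family, had 75 and 56 counts in CHD7 KO, 0 and 1 in HERVH KO and 1 and 0 in WT, a ratio of 136 to HERVH KO (95% interval 24.0 to 5420). The interval covers counting error only. For VAV1, CHP2, TCEAL5 and the pseudogene DUX4L27 (21 and 13 counts against 0 and 0) both references were at or near 0, and the rise did not turn on which was used. Elsewhere the size of the rise turned on it. SLITRK2, a transmembrane protein of neurons, had 61 and 75 counts in CHD7 KO and 0 and 1 in HERVH KO but 26 and 28 in WT, and CRHBP, which binds corticotropin-releasing hormone, had 39 and 66 against 1 and 0, with 3 and 10 in WT. LINC01597 and RFPL2 had 0 counts in HERVH KO and 3 and 3 each in WT, and were called against HERVH KO and not against WT. OR5H8, an olfactory receptor gene, had 68 and 107 counts against 0 and 2, with 6 and 1 in WT, and was called against both. Members of the RFPL, TCEAL and olfactory receptor families share sequence, and the counting may have split their reads.

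Most calls of CHD7 KO against WT remained against HERVH KO. Of 222 genes up-regulated against WT, 195 were also up-regulated against HERVH KO, which is 87.8% of the WT calls and 46.1% of the HERVH KO calls. Of 127 down-regulated genes, 101 were, or 79.5% and 62.7%. No gene was called in opposite directions. Some of these genes lie on the long arms of chromosomes 1 and 16, where runs of genes moved together in CHD7 KO. With both arms left out, 154 up- and 107 down-regulated genes were called against WT, and 141 and 88 remained. The genes that remained had a median log2 fold change of 2.13 against HERVH KO and 1.67 against WT when up-regulated, and of -1.5 and -1.64 when down-regulated. The CHD7 KO libraries are the same in both comparisons, so a shared call is not independent evidence. Without CHD7 KO replicate 2, only 42 up- and 20 down-regulated genes were called against WT, and all of these remained.

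**Figure D3:**
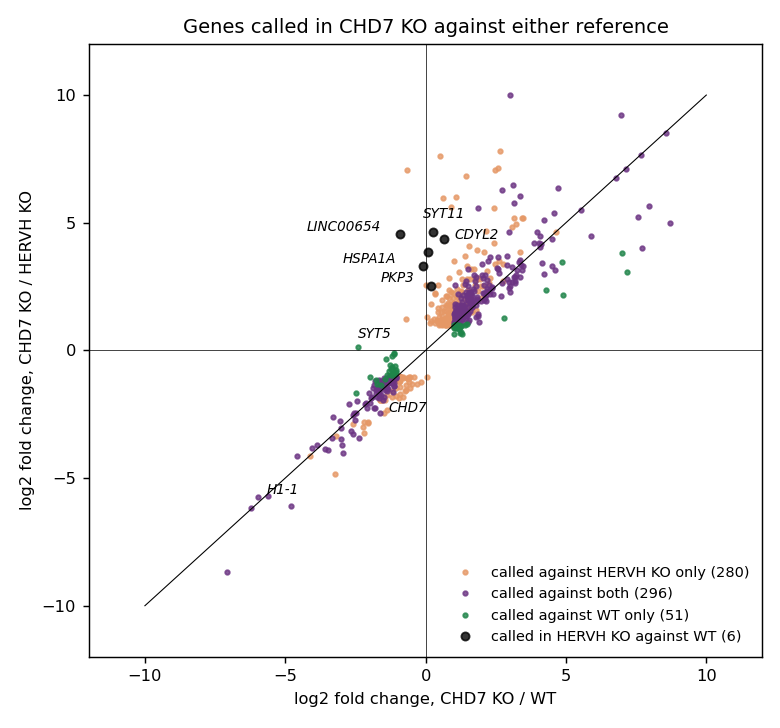
Log2 fold change of CHD7 KO against WT on the x axis and against HERVH KO on the y axis for genes called in either comparison and tested in both, with the diagonal marking equal values. The 296 genes called against both have the same sign on both axes, some of them well off the diagonal (PWWP3B at 3.02 and 10.01). The 51 called against WT only lie nearer to the x axis. The 6 genes called in HERVH KO against WT, among them SYT11, stand above 0 on the y axis and within 1 of 0 on the x axis.

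The 27 up- and 26 down-regulated genes of CHD7 KO against WT that were not called against HERVH KO were mostly smaller effects of the same direction. All 27 of the former and 23 of the 24 of the latter that could be tested had the same sign against HERVH KO, with medians of 0.98 and -0.845 in place of 1.2 and -1.23. At an FDR below 0.05, 25 and 18 differed from HERVH KO in the same direction, so that the 2-fold limit or the stricter FDR kept these out of the calls. By the rule that HERVH KO must itself be called against WT in the same direction, 0 genes in either direction were reference-dependent with edgeR's quasi-likelihood test, against 2 and 3 down-regulated genes by DESeq2 and edgeR's exact test. HERVH KO against WT had 0 up- and 6 down-regulated genes, so no rise and at most 6 falls could meet this rule. The 0 therefore does not show that the effects are free of the WT libraries. At an unadjusted p below 0.05, HERVH KO differed from WT in the same direction for 3 of the 22 up-regulated genes that were tested. The same held for 12 of the 26 down-regulated genes, beside 1704 of 22073 over all genes tested, both directions together. That both KO lines lay on the same side of WT in the genes not called against HERVH KO is in part fixed by how these were chosen. The same WT libraries enter both values.

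Among those 12 down-regulated genes, a few were at a like low level in both KO lines and higher in WT. The ones named here were chosen after their values were seen. CYP4F22, a fatty acid hydroxylase of skin barrier lipids, was at 0.14 and 0.108 CPM in CHD7 KO, 0.0431 and 0 in HERVH KO and 1.39 and 2.01 in WT. It passed an FDR of 0.05 in HERVH KO against WT (FDR = 0.0399) and was too low in both KO lines to be tested between them. SYT5, a synaptotagmin of secretory vesicles, was at 0.515 and 0.807 CPM in CHD7 KO, 0.561 and 0.654 in HERVH KO and 4.74 and 2.24 in WT, so that a log2 fold change of -2.41 against WT (FDR = 0.00235) became 0.12 against HERVH KO (FDR = 0.954). CDKN1A, the cell cycle inhibitor p21 and a target of p53, was at 15.4 and 15.0 CPM in CHD7 KO, 20.6 and 14.4 in HERVH KO and 47.9 and 21.1 in WT. Its value was -1.19 against WT (FDR = 0.00422) and -0.21 against HERVH KO (FDR = 0.562). EDNRB, an endothelin receptor of neural crest cells, went from -1.11 against WT to -0.14 against HERVH KO, and TNFRSF25 from -1.11 to -0.11. The WT libraries themselves differed in CDKN1A and EDNRB (37.0 and 17.2 CPM), with WT replicate 1 the higher in both.

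In the other direction, 228 up- and 60 down-regulated genes were called against HERVH KO and not against WT. Against WT, 223 of the 228 and 57 of the 58 tested had the same sign, with medians of 0.961 and -0.978 beside 1.52 and -1.39 against HERVH KO, and 126 and 32 reached an FDR below 0.05. Over all 584 calls of the direct comparison, the WT mean on the log2 scale was nearer to HERVH KO than to CHD7 KO in 366 of the 423 up- and 147 of the 161 down-regulated genes. In the remaining 57 and 14 genes, WT was nearer to CHD7 KO.

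Of these genes, 6 passed the test of HERVH KO against WT itself, and all 6 were lower in HERVH KO than in WT. Without HERVH KO replicate 2, none of the 6 was called against WT. SYT11, a synaptotagmin of vesicle traffic on chromosome 1 (155829358 to 155854990), had 667 and 468 counts in CHD7 KO, 18 and 29 in HERVH KO and 488 and 504 in WT. It was 4.62 higher on the log2 scale in CHD7 KO than in HERVH KO (SE 0.245, FDR = 5.53e-14) and 0.28 higher than in WT (FDR = 0.488), while HERVH KO against WT gave -4.33 (FDR = 0.000223). CDYL2, a chromodomain protein of the CDY family, had 204 and 200 counts in CHD7 KO, 9 and 11 in HERVH KO and 141 and 136 in WT. The non-coding LINC00654 on chromosome 20 had 80 and 61 counts, 3 and 3, and 130 and 150. The unnamed lncRNA ENSG00000260834 on chromosome 16 had 394 and 378, 38 and 18, and 461 and 327. HSPA1A, an inducible HSP70 chaperone, had 358 and 300, 45 and 25, and 421 and 340, and PKP3, a desmosomal plakophilin, had 323 and 261, 60 and 46, and 256 and 289. In all 6 genes the HERVH KO libraries lay below the other 4. HSPA1A has a nearly identical neighbour, so its reads could be split between copies. None of the 6 lies on chromosome 2.

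In the region of the deletion, 10 of 18 listed genes were tested and 4 were called against HERVH KO, 40.0% beside 2.65% over all genes. This share does not measure an enrichment. PKP4P1 and HSPA8P6 passed the filter on low counts only through CHD7 KO, and genes low in both lines were not tested. The pseudogenes PKP4P1 (12 and 20 counts in CHD7 KO, 0 and 0 in HERVH KO, 29 and 26 in WT) and HSPA8P6 (14 and 32, 0 and 0, 13 and 22) were at least 11.1-fold and 15.9-fold higher in CHD7 KO, and the WT counts lay near those of CHD7 KO. Against WT, HERVH KO did not pass the test in either (FDR = 0.0702 and 0.241), although it had 0 counts in both libraries. In the remaining pair the WT libraries lay beside those of HERVH KO. CPS1, the first enzyme of the urea cycle, starts at 211342406, farther from the deletion than UNC80. CPS1 was at 62.4 and 66.4 CPM in CHD7 KO, 14.0 and 13.7 in HERVH KO and 12.8 and 11.5 in WT. CHD7 KO exceeded HERVH KO by 2.22 (SE 0.135, FDR = 1.17e-12) on the log2 scale. MAP2, a microtubule protein of dendrites and the nearest protein-coding gene to the deletion, had 526 and 385 counts in CHD7 KO, 1013 and 894 in HERVH KO and 862 and 1003 in WT. Its value was -1.02 (SE 0.137, FDR = 3.52e-06) against HERVH KO and -0.95 against WT. UNC80, at 466.6 kb, did not pass the test (-0.6, FDR = 0.204). The median over the 10 genes tested was -0.0666.

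Genes of pluripotency were called in part, some by large amounts and some at little over 2-fold. Of 27 primed and general pluripotency genes tested, 2 were up- and 1 down-regulated against HERVH KO, 11.1% beside 2.65% over all genes, with a median of 0.0221. GDF3, a TGF-beta family ligand, had 948 and 793 counts in CHD7 KO, 48 and 50 in HERVH KO and 55 and 72 in WT, and rose by 4.2 on the log2 scale (SE 0.186, FDR = 1.35e-15). DPPA2, an epigenetic priming factor, rose by 1.88 (SE 0.252). OTX2, a homeobox factor of primed cells, was at 45.0 and 39.3 CPM in CHD7 KO, 90.8 and 85.8 in HERVH KO and 75.3 and 77.4 in WT, with a value of -1.06 against HERVH KO and -0.87 against WT, under 2-fold.

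Of 15 listed genes of naive pluripotency, 8 were tested and 4 rose, 50% beside 1.92% up-regulated over all genes, with a median of 1.03 against HERVH KO and 0.638 against WT. DPPA3, a maternal factor also known as STELLA, had 261 and 259 counts in CHD7 KO, 20 and 13 in HERVH KO and 15 and 18 in WT, a rise of 4.04 (SE 0.279, FDR = 1.74e-11). DPPA3 and GDF3 are neighbours on chromosome 12, where GDF3 spans 7842380 to 7848371 and DPPA3 7864029 to 7870155. NR5A2, an orphan nuclear receptor on the long arm of chromosome 1, had a value of 1.01 against HERVH KO. It was at 39.9 and 46.8 CPM against 23.9 and 19.3, with 21.2 and 17.4 in WT. TFAP2C, an AP-2 factor, was at 7.54 and 10.8 CPM in CHD7 KO, 2.59 and 2.89 in HERVH KO and 6.55 and 4.15 in WT, and SUSD2, a surface marker of naive cells, was at 9.22 and 8.77, 4.7 and 3.98, and 5.57 and 6.95. For TFAP2C (1.74 against HERVH KO, 0.76 against WT) and SUSD2 (1.05 and 0.51) the call held against HERVH KO only. KLF4, another factor of this list, had values of 1.1 (FDR = 0.0183) and 0.14. The other tested members, KLF5 (0.84), ESRRB (0.3) and TFCP2L1 (-0.16), were not called against HERVH KO. The naive factors KLF17 and ARGFX had at most 0.187 CPM in any library.

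Transcripts supplied by HERVH copies were in part higher in CHD7 KO. Of 9 listed, 8 were tested and 3 were up-regulated against HERVH KO, 37.5% beside 1.92% over all genes, with medians of 0.813 against HERVH KO, 0.592 against WT and -0.317 for HERVH KO against WT. SCGB3A2, a secretoglobin, had 606 and 459 counts in CHD7 KO, 37 and 25 in HERVH KO and 38 and 28 in WT, a rise of 4.15 (SE 0.215, FDR = 3.27e-14). HHLA1, an HERV-H LTR-associated gene, had 644 and 531 counts, 130 and 99, and 240 and 151, with WT between the KO lines. LINC01108 had 80 and 66, 22 and 7, and 36 and 35, and was called against HERVH KO only. ESRG, the most abundant of them, was at 257 and 322 CPM in CHD7 KO and 388 and 335 in HERVH KO and did not pass the test (-0.32, FDR = 0.0538). The summed level of the list, most of it ESRG, was 441 and 505 CPM in CHD7 KO, 513 and 447 in HERVH KO and 636 and 462 in WT, so that it did not follow the median and the groups overlapped.

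The clustered protocadherins, neuronal cell adhesion proteins encoded in 3 arrays on chromosome 5, were called in 1 direction only. Of 54 tested, 19 were up-regulated and 0 down-regulated against HERVH KO, or 35.2% beside 2.65% over all genes, and 47 had a positive sign. The median was 1.07 against HERVH KO, 0.931 against WT and -0.0704 for HERVH KO against WT, and 11 were up-regulated against WT. The summed level of the family was 388 and 429 CPM in CHD7 KO, 233 and 228 in HERVH KO and 254 and 261 in WT. PCDHB5 had 646 and 465 counts in CHD7 KO, 31 and 24 in HERVH KO and 23 and 28 in WT, a rise of 4.38 (SE 0.219, FDR = 1.86e-14). PCDHGA9 rose by 2.34 against HERVH KO and 2.2 against WT. PCDHGB4 (13.1 and 13.8 CPM, 2.16 and 2.34, 6.78 and 6.25) and PCDHB15 (11.8 and 10.8, 2.11 and 2.83, 5.06 and 4.94) had WT between the KO lines, with values of 2.58 and 2.2 against HERVH KO and 1.03 and 1.17 against WT. The alpha and gamma genes share their last exons within an array and the beta genes are close paralogs, so reads of single members are uncertain.

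**Figure D4:**
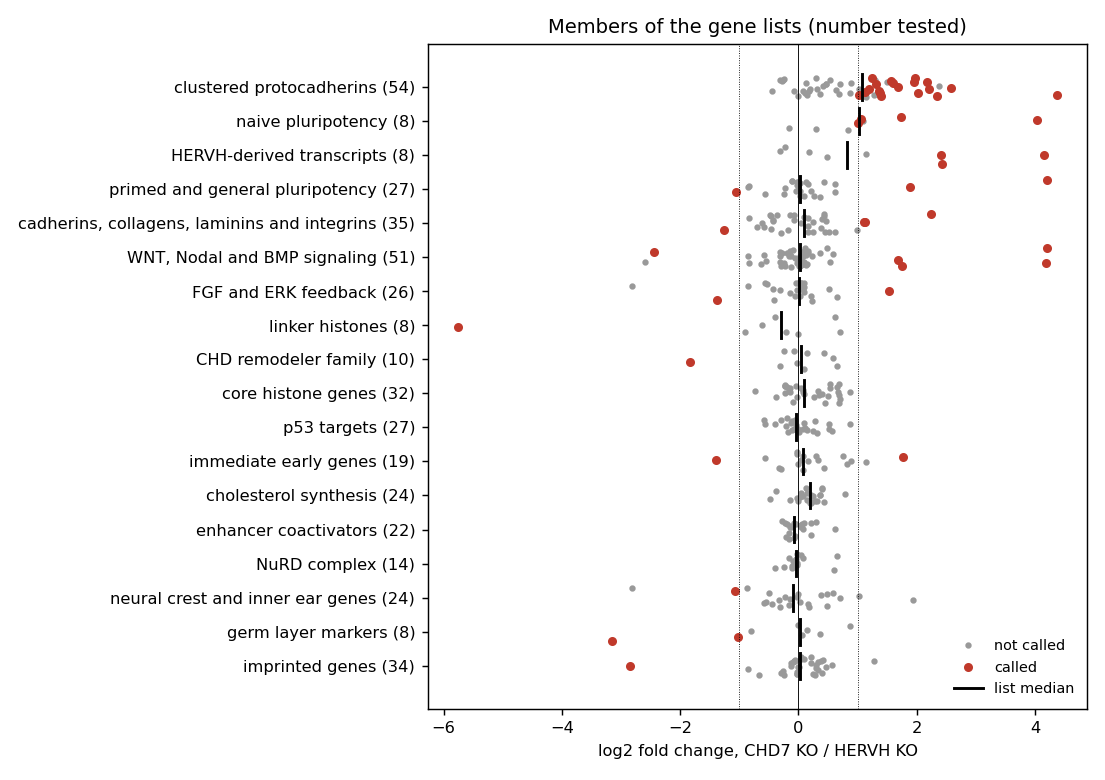
Log2 fold change of CHD7 KO against HERVH KO for every tested member of 18 gene lists, with called members in red and the list median as a bar. The medians of the clustered protocadherins (1.07), naive pluripotency (1.03) and HERVH-derived transcripts (0.813) lie to the right of the others, and the p53 targets (-0.0389) lie at 0.

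Other adhesion and matrix genes were called in both directions. Of 35 cadherin, collagen, laminin and integrin genes tested, 3 rose and 1 fell, 11.4% beside 2.65% over all genes, with a median of 0.0863. CDH1, the E-cadherin of epithelial junctions, was at 488 and 460.0 CPM in CHD7 KO, 222 and 217 in HERVH KO and 322 and 261 in WT, and FN1, fibronectin, was at 202 and 219, 102 and 91.7, and 137 and 105. Both had WT between the KO lines and were called against HERVH KO (1.11 and 1.12) and not against WT (0.69 and 0.79, under 2-fold). COL6A3, a chain of type VI collagen, rose by 2.24 against HERVH KO and 2.08 against WT, and COL12A1 fell by 1.26 and 1.4.

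Among 51 tested genes of WNT, Nodal and BMP signaling, 4 rose and 1 fell, 9.8% beside 2.65% over all genes, with a median of 0.0221. Of the secreted ligands, GDF3 is described above, and INHBA, the activin A subunit, was at 7.21 and 5.86 CPM against 1.98 and 1.91 in HERVH KO, with 3.3 and 1.59 in WT. Of the secreted antagonists, CER1 had 48 and 11 counts in CHD7 KO and 1 and 2 in HERVH KO, a ratio of 20.5 (95% interval 6.67 to 102) that rests on few reads. GREM1, a BMP antagonist, had 8 and 10 counts against 69 and 36, with 38 and 70 in WT. In the FGF list, 26 genes were tested, 1 rose and 1 fell, 7.69% called, with a median of 0.0112. The ligand FGF19 was at 26.1 and 21.0 CPM against 9.88 and 6.37, with 10.5 and 11.0 in WT. The receptor FGFR3 was at 23.1 and 20.9 CPM against 53.4 and 60.3, with 49.1 and 76.1 in WT. Both were called against either reference.

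Remodelers other than the target, and core histone genes, were not called. Among the 10 CHD family genes, 1 was called, CHD7 itself, and the median was 0.0355. CHD9, on chromosome 16, was 0.58 higher (FDR = 0.000124) and CHD3 0.66 higher (FDR = 3.99e-05) in CHD7 KO than in HERVH KO, under 2-fold. Of 14 genes of the NuRD complex and 22 enhancer coactivators, 0 were called in either direction by edgeR's quasi-likelihood test, with medians of -0.0368 and -0.0704. MTA1, a NuRD subunit, differed by -0.04 (SE 0.0956) and EP300, the acetyltransferase p300, by 0.05 (SE 0.0912). The study reports p300 protein above WT in both KO lines, and RNA counts do not measure protein. Of 8 linker histone genes tested, H1-1 was called, H1-4 had a value of -0.91 (FDR = 7.24e-08) and H1-3 of 0.7 (FDR = 9.52e-06), and 0 of 32 core histone genes were called.

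The p53 targets are a list whose position depended on the WT libraries. Of 27 tested, 0 were called against HERVH KO and 13 had a positive sign, with a median of -0.0389. Against WT, 2 were down-regulated in CHD7 KO, CDKN1A and FDXR, 5 had a positive sign, and the median was -0.284. The same median for HERVH KO against WT was -0.283, with 0 calls. Summed over the list, CHD7 KO had 1600 and 1630 CPM, HERVH KO 1730 and 1590, and WT 2230 and 1760, so that the higher WT value came mainly from WT replicate 1. FDXR, ferredoxin reductase, was at 11.2 and 11.1 CPM, 16.7 and 16.6, and 29.2 and 24.2, and DDB2, a DNA damage binding protein, at 31.0 and 40.7, 37.7 and 34.0, and 69.6 and 46.5. Immediate early genes had a median of 0.0761 against HERVH KO, -0.226 against WT and -0.315 for HERVH KO against WT. Of 19 tested against HERVH KO, 10.5% were called, beside 2.65% over all genes. JUN, on chromosome 1, was the 1 member up-regulated against HERVH KO (34.0 and 28.1 CPM, 11.6 and 6.59, 22.2 and 11.6 in WT), and FOSL1 the 1 down-regulated (3.23 and 4.25, 10.9 and 8.82, 15.8 and 7.74).

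Of metabolic lists, 24 cholesterol synthesis genes had 0 calls and a median of 0.19, and 26 glycolysis and hypoxia genes had 1, ADM, or 3.85%. The sign of the glycolysis and hypoxia median turned on the reference. It was 0.158 against HERVH KO, -0.0591 against WT and -0.219 for HERVH KO against WT. ADM, the hypoxia-responsive peptide adrenomedullin, was at 21.5 and 16.6 CPM in CHD7 KO, 55.2 and 53.1 in HERVH KO and 54.3 and 63.7 in WT. Of 34 imprinted genes tested, 1 was called, 2.94% beside 2.65% over all genes. DLK1 was this gene and fell (5 and 19 counts against 124 and 65, with 68 and 41 in WT). Of 194 chromosome 19 zinc finger genes 2 rose and 1 fell, 1.55% called. ZNF726 had 78 and 75 counts in CHD7 KO, 2 and 1 in HERVH KO and 42 and 46 in WT, and HERVH KO against WT gave FDR = 0.022. ZNF558 was at 6.56 and 9.79 CPM against 21.4 and 21.0, with 23.6 and 23.2 in WT, and the third, ZNF665, had 25 and 22 counts against 0 and 4. All 37 mitochondrially encoded gene rows held 0 counts in every library and could not be used as a check of RNA quality.

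Many markers of differentiated cells were too low to be tested. Of 19 germ layer markers, 8 were tested and 2 fell, FOXA2 and MAP2. FOXA2, a factor of endoderm and floor plate, had 7 and 13 counts in CHD7 KO, 93 and 94 in HERVH KO and 30 and 106 in WT, with the WT replicates apart. The mesoderm factors MSGN1, at 0 in all 6 libraries, and TBXT, at most 0.431 CPM, and the endoderm factor SOX17, at most 0.187 CPM, were not tested. The summed level of the list was 648 and 500.0 CPM in CHD7 KO and 341 and 376 in HERVH KO, most of it NES, an intermediate filament gene on chromosome 1 (612 and 471 against 282 and 312), which was 0.87 higher and under 2-fold. Of 19 trophoblast, amnion and fibroblast markers, 7 were tested and 1 was called, 14.3% beside 2.65% over all genes. This was COL1A1, a fibroblast collagen, which rose by 1.13 (121 and 122 CPM, 54.0 and 57.1, 84.1 and 67.3 in WT). The summed level of that list was 277 and 285 CPM in CHD7 KO, 183 and 182 in HERVH KO, and 244 and 215 in WT. In bulk samples, more cells of a type and more RNA per cell cannot be told apart. Of 24 tested genes of neural crest and inner ear, tissues affected in CHARGE syndrome, 1 was called. This was 4.17% beside 2.65% over all genes, and the median was -0.0924. SEMA3A, an axon guidance ligand, was the gene called and fell by 1.08 (48.2 and 54.9 CPM, 111 and 107, 92.9 and 92.7 in WT).

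Part of the up-regulated genes lay in runs along chromosomes that moved together in the CHD7 KO libraries. On the long arm of chromosome 1, the median difference from the HERVH KO mean was 0.562 and 0.498 on the log2 scale in the CHD7 KO replicates over 571 genes, against 0.00747 and -0.0612 over 737 genes of the short arm. HERVH KO against WT gave -0.000535 and -0.0119 for the long arm, and CHD7 KO against WT gave 0.567 and 0.492. The long arm held 4.56% of the genes tested and 14.4% of the up-regulated ones (61 of 423, with 3 down-regulated). In 493 blocks of about 25 neighbouring genes, 19 were shifted by more than 0.3 upwards in both CHD7 KO replicates, and 17 of these were among the 22 blocks of that arm. After SYT11, the largest changes on that arm were in RN7SKP276, a 7SK pseudogene (18 and 28 counts against 3 and 0), FCRL5, an Fc receptor-like protein of B cells (116 and 98 against 7 and 12), and PCP4L1 (24 and 29 against 4 and 2). On chromosome 16, the block of genes starting between 77822461 and 85007781 was shifted by 0.793 and 0.676, and the following blocks, to 90168669, by -0.356 and -0.472 and by -0.62 and -0.754. Among the genes named above, NR5A2, NES and SYT11 lie on the long arm of chromosome 1 and CDYL2 in the block of chromosome 16 shifted upwards, where neighbours moved by a median of 0.534 over the chromosome 1 arm and by the values above on chromosome 16. CDH13, the atypical T-cadherin, starts at 82660570 in that same block and had 75 and 40 counts in CHD7 KO, 7 and 9 in HERVH KO and 16 and 13 in WT. Elsewhere on the long arm of chromosome 16, DPEP3, a dipeptidase starting at 68009566, had 31 and 20, 0 and 3, and 0 and 0. With the long arms of both chromosomes left out, 330 genes were up- and 147 down-regulated between CHD7 KO and HERVH KO. The runs were present against either reference, and their part in the change of any gene was not tested.

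**Figure D5:**
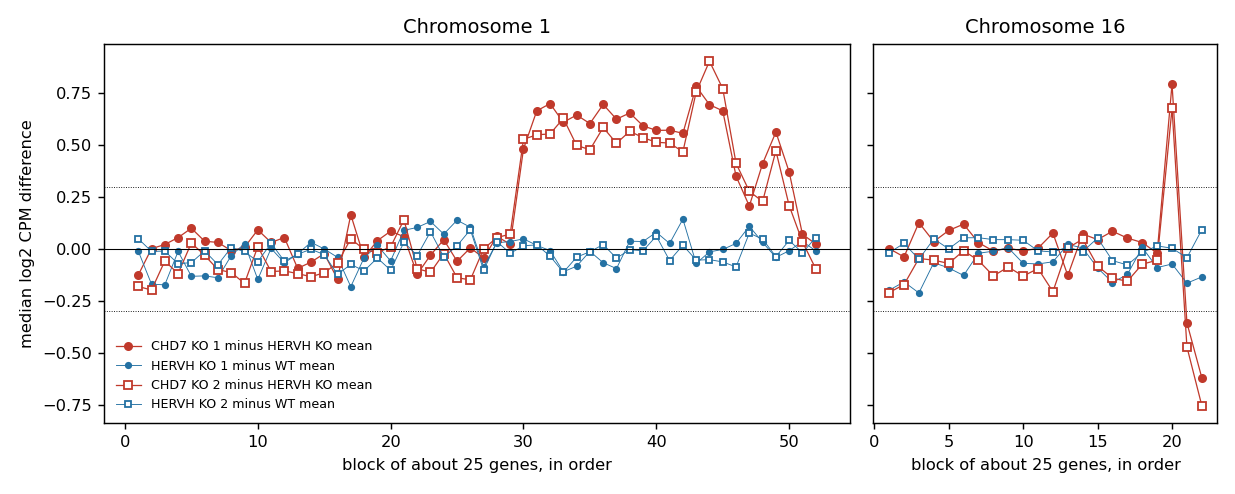
Median log2 CPM difference of blocks of about 25 neighbouring genes in chromosome order, for each CHD7 KO library minus the HERVH KO mean (red) and each HERVH KO library minus the WT mean (blue). Both CHD7 KO libraries lie above the dotted line at 0.3 over most of the long arm of chromosome 1 and shift at the end of chromosome 16, and on these chromosomes both HERVH KO libraries stay within 0.3 of WT.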

How the data were processed

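Strand-specific, rRNA-depleted RNA-seq of H9 hESCs was used, with 2 replicates each of CHD7 KO, HERVH KO and WT cells, grouped by their labels. The authors aligned to hg19 by STAR, using Ensembl gene models of GRCh37, and counted reads per gene with HTSeq, and the deposited values are these counts, as whole numbers without normalization. Tool versions and the strand setting of the counting are not given in the sources used here, so reads of overlapping and antisense genes may not be told apart.

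Each comparison was fitted on its own 4 libraries with edgeR 4.0.16 (R 4.3.3) by TMM scaling, filterByExpr, glmQLFit and glmQLFTest, with 2 residual degrees of freedom. P-values were adjusted by Benjamini-Hochberg over all genes tested, and DEGs had an FDR below 0.01 and at least a 2-fold change, the thresholds of the study's methods. Standard errors were derived from the quasi-likelihood F statistic. CPM used TMM factors over the 6 libraries, and log2 CPM a prior count of 2. The floor was 3 counts over a group, and ratios to groups with 1 to 3 counts have exact binomial 95% intervals, which cover counting error only. In a single library 3 counts corresponded to 0.13 to 0.166 CPM. Symbols and positions came from GENCODE annotation on GRCh37 (55538 genes, 96.13%).

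An effect of CHD7 KO against WT was said to remain when it was also called against HERVH KO in one direction, and to be reference-dependent when it was not and HERVH KO was called against WT in that direction. Named were CHD7, H1-1 and SYT11, the 12 largest rises and 12 largest falls among called genes with a symbol and no overlap of CPM, up to 6 genes in each direction that depend on either reference, the called members of each list up to 4, and 10 genes for their levels. The p53 targets CDKN1A, FDXR and DDB2, the members named beside an uncalled value and the genes called against WT only were chosen after their values were seen. The members of the comparison and the 25 gene lists were chosen with earlier results of these data known, and lists are described by counts and medians with no test. Genes above a log2 CPM of 2 were used for the blocks along chromosomes.

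Alternatives were RLE scaling, DESeq2 1.42.0, edgeR's exact test, other filters, fits of 6 or 8 libraries, the replicate number as a block, an FDR of 0.05, the omission of 1q and 16q, and each replicate left out. In a test on simulated data for CHD7 KO against HERVH KO, 199 of 200 changed genes were recovered and 1 unchanged gene was called among 21222 genes. The changed genes were taken above a minimum level and altered by folds well over the 2-fold limit. Recovery near that limit or at low counts was therefore not tested. The count files have no rows for HERVH copies, and the knockdown libraries entered only the fit of 8 libraries. Figures were drawn with matplotlib 3.10.9.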

Additional observations from a re-analysis of the deposited data

How the results depend on the processing

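In CHD7 KO, rises outnumbered falls against either reference under every alternative, and the size of the counts did not always hold. HERVH KO against WT had falls only in the main fit. Rises were also called there by edgeR's exact test (3) and with the replicate number as a block (10). With all 8 libraries in the fit, CHD7 KO against HERVH KO gave 180 up- and 82 down-regulated genes, all 262 of them among the 584 (44.9%), CHD7 KO against WT gave 79 and 55, and 68 and 46 remained. With no filter on low counts, CHD7 KO against WT gave 126 and 70, of which 116 and 61 remained. At an FDR below 0.05, CHD7 KO against WT gave 343 and 199, HERVH KO against WT 13 down-regulated genes, and 1 down-regulated gene was reference-dependent. For HERVH KO against WT, the down-regulated genes were 18 by DESeq2, 30 by edgeR's exact test (with 3 up-regulated), 16 in the fit of 6 libraries and 3 without 1q and 16q, and the reference-dependent down-regulated genes were 2 by DESeq2 and 3 by the exact test.

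Leaving out 1 library at a time gave 346 to 565 up- and 136 to 268 down-regulated genes for CHD7 KO against HERVH KO, 42 to 264 and 20 to 177 for CHD7 KO against WT, and 0 to 25 and 0 to 100 for HERVH KO against WT. Between 42 and 230 up- and 20 and 100 down-regulated genes remained, and 0 to 2 up- and 0 to 11 down-regulated genes were reference-dependent. A lone library was assumed to vary like the other group. The lowest counts against WT came without CHD7 KO replicate 2, and the highest counts of HERVH KO against WT without WT replicate 1 (25 up) or WT replicate 2 (100 down).

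The replicate numbers come from the labels, which do not say what they share, and deviations of same-numbered libraries correlated at -0.069, -0.0615 and 0.139 in the 3 comparisons, over 2 pairs each. With the replicate number as a block, CHD7 KO against HERVH KO gave 364 up- and 143 down-regulated genes, CHD7 KO against WT 139 and 81, HERVH KO against WT 10 and 39, and 2 down-regulated genes were reference-dependent.

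Of 1068 values of the 79 named genes under alternatives, 1009 kept direction and call, 53 lost the call and 6 changed sign. The 6 were in genes near 0 that were not called, whose log2 fold changes with 1 library left out ranged from -0.07 to 0.26 (SOX2), -0.12 to 0.16 (LIN28A), -0.15 to 0.11 (L1TD1), -0.02 to 0.12 (EP300) and -0.0 to 0.06 (NANOG). The fit of 8 libraries lost 19 of the calls, among them COL1A1, FGFR3, FOSL1, DLK1 and SUSD2, and DESeq2 gave no adjusted p for 11 genes of low counts. Of 334 list medians, 55 moved by more than the difference between the CHD7 KO replicates. Folds of genes with 3 or fewer counts in a group are bounds or wide ratios at this depth.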
